A study of Homo sapiens with 4 samples.

Results

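The genes described here encode heat shock proteins and molecular chaperones, read from RNA sequencing of HCC1954 cells, an established human breast cancer line with amplified ERBB2. They were chosen by symbol among protein-coding genes: HSPA, HSPB and HSP90A genes, the J-protein genes DNAJA, DNAJB and DNAJC, the CCT and BAG genes, HSPD1, HSPE1, HSPH1 and HSF1, without HSPA5, DNAJB9, DNAJB11 and DNAJC3 of the endoplasmic reticulum. This gave 85 of the 58735 genes in the deposited table, under 84 symbols, since HSPA14 had 2 gene entries with overlapping exons. Although the set was named for the cytosol, its symbols also took in mitochondrial proteins (HSPA9, HSPD1, HSPE1, DNAJA3, DNAJC15 and DNAJC19) and proteins of the endoplasmic reticulum (HSPA13, DNAJB12, DNAJB14, DNAJC1 and DNAJC10). The study compared 2 samples with a scrambled control hairpin (shCON) with 2 samples with a hairpin against ZDHHC15 (shZDHHC15), an enzyme that attaches palmitate to proteins, and asked how the depletion of ZDHHC15 changes gene expression. Both hairpins were carried by GIPZ lentiviral vectors, and the labels name no further agent. The labels call the knockdown stable in the design text and transient, by lipid transfection, in the treatment text. They number the samples 1 and 2 without saying whether the numbers stand for separate cultures or for different hairpins. The p-values given here therefore measure only the spread between these samples, which may be technical. The paper's methods report a western blot screen of several monoclonal cultures for the hairpins. If the 2 groups are different clones, clone and knockdown cannot be told apart in these data.

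Molecular chaperones keep proteins from aggregating and help them fold. Proteins of the HSP70 class bind short hydrophobic stretches in cycles of ATP hydrolysis; J-proteins deliver clients and speed the hydrolysis, and nucleotide exchange factors such as the HSP110 and BAG proteins release the client again. HSP90 acts later on kinases and receptors, small heat shock proteins hold unfolded clients without ATP, and the ring-shaped CCT complex folds actin and tubulin. When unfolded proteins accumulate, the transcription factor HSF1 binds heat shock elements in promoters and turns on the inducible genes, while other members of the same families are constantly expressed. HER2, the product of ERBB2, is a well-known HSP90 client in breast cancer cells.

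The libraries held between 17560982 and 19118704 counts on genes. Replicates of a group differed by more than counting noise (chi-square per degree of freedom of 8.32 for shCON and 6.79 for shZDHHC15), and mitochondrial genes took 2.18% and 2.07% of the counts in shCON against 2.58% and 2.63% in shZDHHC15. ZDHHC15 itself had 17617 and 15716 counts in shCON and 0 counts in both shZDHHC15 samples. The line's own markers were present in all samples, with ERBB2 at 92598 to 101910 counts, but the summed level of 9 epithelial markers was lower in shZDHHC15. It was 24694 and 27084 CPM (counts scaled to the TMM-normalized library size) in shCON and 13564 and 14449 CPM in shZDHHC15. The 9 did not all move together. ERBB2 (log2 fold change -0.24), GRB7, EPCAM, KRT5, KRT8, KRT17 and KRT18 were called lower. KRT19 was called higher (0.44), and CDH1 was not called (-0.05). ESR1, which this line is known to lack at the protein level, was called higher (log2 fold change 1.09, adjusted p = 2.13e-04 by edgeR). It had 161 and 103 counts in shCON and 308 and 305 in shZDHHC15, and PGR had at most 1. Among the leukocyte markers, CD3E was at 0 and PTPRC at 4 counts or fewer, while CD14 was called higher (9 and 5 counts in shCON, 25 and 22 in shZDHHC15, log2 fold change 1.61, adjusted p = 0.0159 by edgeR). The summed level of the list was 0.658 and 0.415 CPM against 1.61 and 1.27 CPM. Of 5 fibroblast markers, LUM was at 0 and DCN at 1 count or fewer, while COL1A1 was called higher (100 and 120 counts in shCON, 214 and 161 in shZDHHC15, log2 fold change 0.65, adjusted p = 0.0232 by edgeR), with sums of 5.81 and 7.17 against 11.5 and 8.51 CPM. Of 3 endothelial markers VWF had 7 counts or fewer, while PECAM1 had 75 and 56 against 666 and 405 counts and CDH5 had 807 and 780 against 1224 and 1487, both called higher, and the sum was 48.4 and 49.98 against 102 and 96.7 CPM. The part of these shifts in the chaperone results was not tested. In bulk RNA, fewer cells with a transcript and less transcript per cell cannot be told apart.

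Of the 85 genes, 73 passed the filter on low counts and were tested with edgeR's quasi-likelihood test, with p-values adjusted by Benjamini-Hochberg over all 15817 genes tested and calls made at an adjusted p under 0.05. In shZDHHC15 cells 13 of them were higher (17.8%) and 12 were lower (16.4%), where 21.7% of all tested genes were higher and 20.3% were lower. Neither share was above that of all genes, and the counts by class given below are to be read beside the same shares of all genes. Most differences were small. Among the tested genes, 57 lay within 0.5 of 0 on the log2 scale, and the median log2 fold change was 0.04 (quartiles -0.21 and 0.29) beside 0.02 (-0.33 and 0.41) over all tested genes. Among the called genes only HSPA1L passed a 2-fold rise (background 7.51%), and HSPA6, HSPB8, HSPA12B and DNAJC6 passed a 2-fold fall (background 3.79%). The normalized values of the groups did not overlap for 55 of the 73 genes, against 72.5% of all tested genes. As a share of all counts the 85 genes took 1.57% and 1.55% in shCON and 1.66% and 1.69% in shZDHHC15. With no filter on low counts, 7 of the calls were lost (BAG3, CCT4, DNAJC8, HSPA1L, HSPA4, HSPB1 and HSPH1). The smallest two-sided p that permuting the labels of 2 and 2 samples allows is 0.333, and the calls draw on a spread that is estimated across genes.

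**Figure D1:**
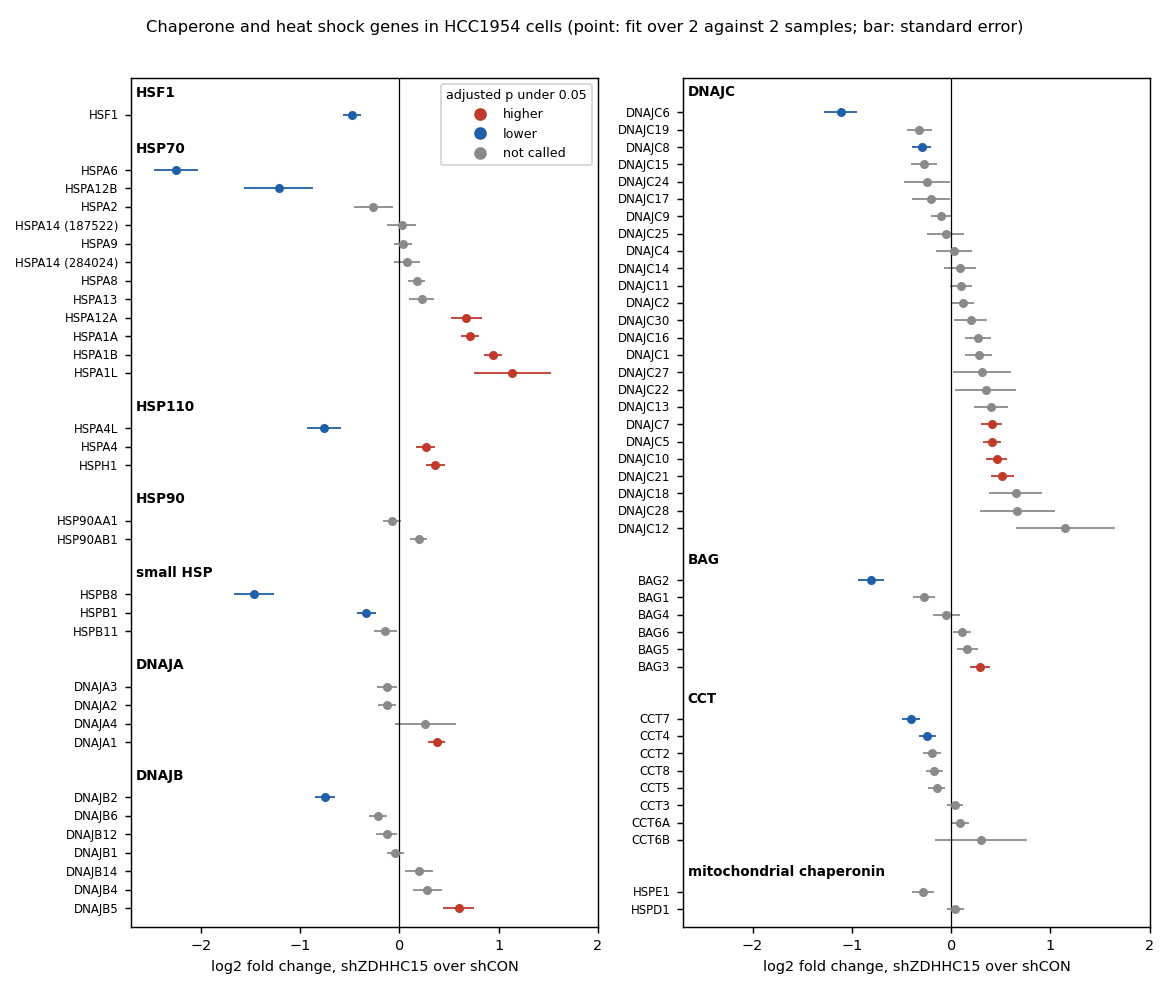
Each point is the log2 fold change of 1 of the 73 tested chaperone genes (x axis, shZDHHC15 over shCON), with its standard error as a bar, ordered by class and coloured by call at an adjusted p under 0.05. The points range from -2.25 for HSPA6 to 1.15 for DNAJC12, and 48 genes, among them both HSP90 genes and HSPA8, are drawn in grey as not called.

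Within the HSP70 class the inducible genes went in opposite directions. HSPA1A and HSPA1B, which encode the same major stress-inducible HSP70 protein and lie side by side on chromosome 6 (GRCh38, 31815464 to 31817946 and 31827735 to 31830255, plus strand), both rose. HSPA1A had 2999 and 3045 counts in shCON and 5096 and 5728 in shZDHHC15. Its level was 173 ± 11.3 CPM in shCON and 283 ± 12.8 CPM in shZDHHC15 (SD over 2 samples), and the log2 fold change was 0.71 (SE 0.0931, adjusted p = 2.79e-05 by edgeR). HSPA1B had 1575 and 1435 counts in shCON and 3176 and 3123 in shZDHHC15, a log2 fold change of 0.94 (SE 0.0950, adjusted p = 2.23e-06). For both genes each shZDHHC15 sample lay above each shCON sample. HSPA6, which encodes the strictly inducible HSP70B′ that is nearly silent in unstressed cells, fell instead. It had 224 and 251 counts in shCON but 42 and 67 in shZDHHC15, a level of 13.6 ± 1.83 against 2.83 ± 0.819 CPM. This was the largest change among the chaperone genes, with a log2 fold change of -2.25 (SE 0.220, adjusted p = 1.68e-06).

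These calls were the same without any one sample. HSPA1A and HSPA1B share a stretch of 2152 bases with 98.6% identity, so reads could be split between them. With their counts added into 1 gene, an alternative chosen after seeing the data, the sum was 4574 and 4480 in shCON against 8272 and 8851 in shZDHHC15, with a log2 fold change of 0.79 (SE 0.0875, adjusted p = 5.65e-06 by edgeR). The count of HSPA1A over that of HSPA1B was 1.904 and 2.12 in shCON and 1.60 and 1.83 in shZDHHC15. HSPA6 shares 1933 bases at 98.2% identity with the pseudogene HSPA7, which received 3 counts or fewer in every sample.

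The opposite changes can be set beside the sequence before each start site, because HSF1 recognises inverted repeats of the letters GAA. In the lines that follow, the 250 bases before the RefSeq start of 5 genes (assembly GRCh38.p14) are printed 5′ to 3′ on the gene's own strand, and capitals mark every GAANNTTC or TTCNNGAA match and its extension by a further inverted unit where there is one. They are the inducible pair that rose (HSPA1A at chr6:31815293-31815542 and HSPA1B at chr6:31827488-31827737, plus strand), the inducible genes that fell (HSPA6 at chr1:161524290-161524539 and HSPB8 at chr12:119178681-119178930, plus strand) and the constitutive HSPA8 that was not called (chr11:123062137-123062386, minus strand).
HSPA1A: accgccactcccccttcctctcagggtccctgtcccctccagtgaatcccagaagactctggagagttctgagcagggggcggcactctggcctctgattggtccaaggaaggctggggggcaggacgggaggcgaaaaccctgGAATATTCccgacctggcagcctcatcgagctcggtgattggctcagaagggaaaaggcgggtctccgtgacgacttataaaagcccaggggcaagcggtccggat
HSPA1B: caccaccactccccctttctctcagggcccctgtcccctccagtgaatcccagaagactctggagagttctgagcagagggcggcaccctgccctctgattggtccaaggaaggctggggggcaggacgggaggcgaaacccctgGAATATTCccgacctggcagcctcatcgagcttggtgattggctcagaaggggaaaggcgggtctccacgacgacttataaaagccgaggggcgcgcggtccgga
HSPA6: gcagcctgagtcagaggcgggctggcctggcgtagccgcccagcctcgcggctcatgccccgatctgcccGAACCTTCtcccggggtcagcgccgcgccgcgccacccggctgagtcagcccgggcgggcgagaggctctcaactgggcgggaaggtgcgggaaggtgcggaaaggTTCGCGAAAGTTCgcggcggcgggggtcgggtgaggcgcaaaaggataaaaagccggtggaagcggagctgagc
HSPA8: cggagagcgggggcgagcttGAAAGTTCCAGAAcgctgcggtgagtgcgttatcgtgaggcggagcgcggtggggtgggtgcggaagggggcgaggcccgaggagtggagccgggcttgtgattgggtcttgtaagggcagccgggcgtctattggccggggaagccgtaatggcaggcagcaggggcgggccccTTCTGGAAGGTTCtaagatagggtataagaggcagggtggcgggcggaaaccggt
HSPB8: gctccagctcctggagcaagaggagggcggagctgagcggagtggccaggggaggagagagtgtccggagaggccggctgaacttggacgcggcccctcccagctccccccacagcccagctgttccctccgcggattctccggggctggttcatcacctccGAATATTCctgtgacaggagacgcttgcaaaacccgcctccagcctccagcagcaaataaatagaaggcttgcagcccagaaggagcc

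HSPA1A and HSPA1B each held 1 match with 2 units, with its first base 106 and 105 bases before the start, and their windows of 300 bases (250 before to 50 after the start) were identical at 277 of 301 aligned columns. HSPA1L, transcribed away from HSPA1A, holds the same site of HSPA1A at 161 bases before its own start. HSPA6 held a match with 2 units at 180 bases and one with 3 units at 74 bases before the start. HSPA8 held 2 matches with 3 units, at 230 and 55 bases before the start. HSPB8 held a match with 2 units at 88 bases before the start and another 5 bases into the transcript. A match was therefore found before genes that rose, that fell and that were not called. These are matches of letters, not measured binding sites.

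HSPA8, the constitutive HSC70, was by far the most abundant HSP70 gene, at 320 CPM per kilobase in shCON and 361 in shZDHHC15 (level per length). It had 27813 and 26581 counts in shCON and 31112 and 35961 in shZDHHC15. Its log2 fold change of 0.18 (SE 0.0861) was not called (adjusted p = 0.116 by edgeR), although it was called when counts were scaled to library size only (adjusted p = 0.0177). HSPA9, the mitochondrial HSP70 mortalin, had 5292 and 4675 counts in shCON and 5364 and 5761 in shZDHHC15, with overlapping groups and a log2 fold change of 0.04 (SE 0.0874). The makeup of the HSP70 class differed between the groups. Of the summed level per length of the 12 HSP70 entries, HSPA8 took 66.0% and 66.2% in shCON and 59.3% and 61.3% in shZDHHC15. The inducible pair HSPA1A and HSPA1B took 21.1% and 21.7% in shCON and 30.6% and 29.3% in shZDHHC15. HSPA6 took 1.09% and 1.28% in shCON and 0.164% and 0.233% in shZDHHC15.

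The less abundant HSP70 genes also went both ways. HSPA1L, a relative of HSPA1A expressed mainly in testis, had 15 and 12 counts in shCON and 33 and 32 in shZDHHC15 (log2 fold change 1.14, SE 0.387, adjusted p = 0.0281 by edgeR). That call was lost without any one sample: the adjusted p was 0.0871 and 0.145 without shCON replicate 1 and 2, and 0.104 and 0.0619 without shZDHHC15 replicate 1 and 2. It was also lost with the DESeq2 Wald test (adjusted p = 0.154) and with no filter on low counts (0.0590). HSPA12A and HSPA12B are distant members with an atypical ATPase domain. HSPA12A rose from 160 and 143 to 258 and 269 counts (log2 fold change 0.67, SE 0.157, adjusted p = 0.00310), and its exons overlap ENO4 on the opposite strand, which had 4 counts or fewer. HSPA12B fell from 40 and 37 counts to 18 in both shZDHHC15 samples, with a log2 fold change of -1.21 (SE 0.348, adjusted p = 0.0114 by edgeR, 0.0693 with the DESeq2 Wald test). HSPA2, HSPA13 and the overlapping HSPA14 entries had log2 fold changes between -0.26 and 0.22 and were not called.

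**Figure D2:**
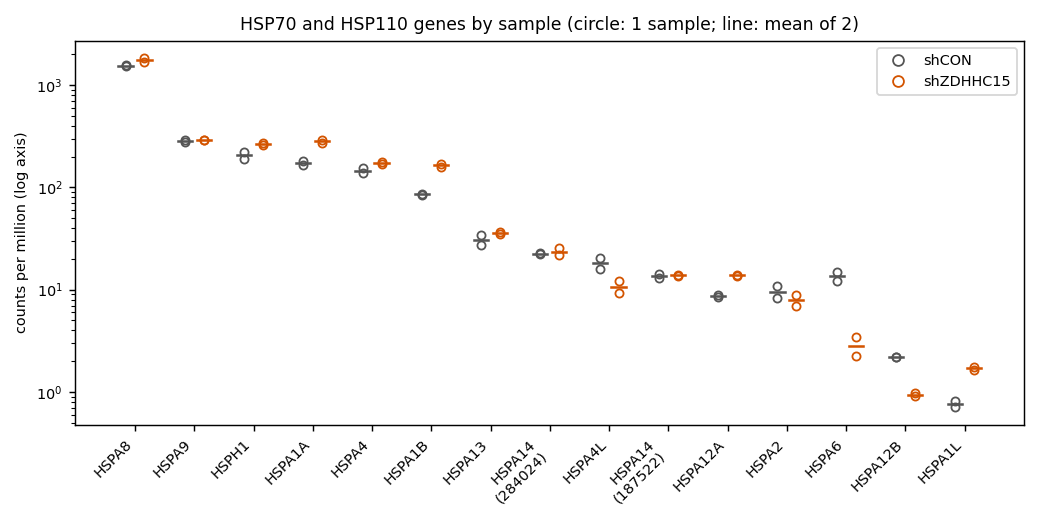
Circles give the level of each HSP70 and HSP110 gene in CPM (y axis, logarithmic) in each of the 2 shCON (grey) and 2 shZDHHC15 (orange) samples, with lines at the means, in order of abundance. HSPA1A and HSPA1B stand higher and HSPA6 lower in both shZDHHC15 samples, and HSPA9 overlaps.

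The HSP110 genes encode large relatives of HSP70 that act as its nucleotide exchange factors. Of the 3, 2 were called higher and 1 lower, where 21.7% of all tested genes were higher and 20.3% lower. HSPH1 had 4055 and 3210 counts in shCON and 4831 and 5321 in shZDHHC15, a log2 fold change of 0.36 (SE 0.0974, adjusted p = 0.00793 by edgeR). HSPA4 had 2789 and 2309 counts in shCON and 3187 and 3484 in shZDHHC15, a log2 fold change of 0.27 (SE 0.0951, adjusted p = 0.0353). Both rises were modest and not called in every set of 3 samples. Without shCON replicate 2 the adjusted p was 0.0553 for HSPH1 and 0.199 for HSPA4, and without shZDHHC15 replicate 2 it was 0.0651 and 0.215. HSPA4 was not called without shZDHHC15 replicate 1 either (0.120), nor with upper-quartile factors (0.0624) or the DESeq2 Wald test (0.0565). HSPA4L fell from 372 and 267 counts to 172 and 239 (log2 fold change -0.76, SE 0.174, adjusted p = 0.00285), and this call held without any one sample. A stretch of HSPA4L is near-identical to the ribosomal protein gene RPL21 (223 bases, 98.2%), which had 3324 and 3311 counts in shCON and 2636 and 3094 in shZDHHC15.

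J-proteins carry a short domain that stimulates the ATPase of HSP70, and their genes made up the largest part of the set, with 42 entries. Of the 4 DNAJA genes, DNAJA1 rose. It encodes the main class A partner of cytosolic HSP70 and had 5790 and 5169 counts in shCON and 7436 and 8073 in shZDHHC15 (log2 fold change 0.38, SE 0.0865, adjusted p = 0.00278 by edgeR). DNAJB1, the heat-inducible HSP40 that works with HSPA1A, was not called: it had 4136 and 3960 counts in shCON and 4183 and 4396 in shZDHHC15, a log2 fold change of -0.04 (SE 0.0881, adjusted p = 0.741 by edgeR). Of the 7 DNAJB genes tested, 1 was higher and 1 was lower. DNAJB5 rose from 165 and 161 to 263 and 275 counts (log2 fold change 0.60, SE 0.155, adjusted p = 0.00623). DNAJB2, whose product carries ubiquitin-binding motifs and directs clients to the proteasome, fell from 2842 and 3075 to 1902 and 1952 counts (log2 fold change -0.75, SE 0.101, adjusted p = 3.99e-05).

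The DNAJC genes use the J-domain in many settings outside general folding. Of the 25 tested, 4 were higher and 2 were lower, with a median log2 fold change of 0.19. DNAJC21, which takes part in ribosome biogenesis, rose from 823 and 650 to 1116 and 1175 counts (log2 fold change 0.52, SE 0.112, adjusted p = 0.00188 by edgeR), although repeats in its transcripts are near-identical to stretches of other genes. DNAJC10, a disulfide reductase of the endoplasmic reticulum, rose by 0.46 (1519 and 1178 counts against 1996 and 2030). DNAJC5, which encodes the palmitoylated cysteine string protein of secretory vesicles, rose from 4746 and 4877 to 6994 and 6957 counts (log2 fold change 0.41, SE 0.0918, adjusted p = 0.00236). DNAJC7, a co-chaperone with tetratricopeptide repeats that handles HSP70 and HSP90 clients, rose from 898 and 872 to 1297 and 1259 counts (log2 fold change 0.41, adjusted p = 0.00604, and 0.0856 without shZDHHC15 replicate 1). Its exons overlap CNP on the opposite strand, which went from 2785 and 2904 to 5488 and 4987 counts, and without knowledge of the strand setting their reads cannot be told apart.

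DNAJC genes also fell. DNAJC6, the neuronal auxilin that uncoats clathrin vesicles together with HSC70, fell from 340 and 257 to 138 and 162 counts (log2 fold change -1.11, SE 0.166, adjusted p = 9.30e-05 by edgeR). DNAJC8, a spliceosome-associated J-protein, fell from 1867 and 1720 to 1485 and 1701 counts (log2 fold change -0.30, SE 0.0975, adjusted p = 0.0239). That call was lost without shZDHHC15 replicate 1 (0.243) or 2 (0.0553), and with library size only (0.0819). DNAJC12, a low-level gene with 6 and 10 counts in shCON and 17 and 22 in shZDHHC15, had the highest estimate of all members (1.15, SE 0.497) but was not called (adjusted p = 0.0772).

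BAG proteins release clients from HSP70 and couple it to degradation. Of the 6 genes, BAG3 was higher and BAG2 was lower. BAG3, which works with HSPB8 in the selective autophagy of misfolded proteins, had 1797 and 1919 counts in shCON and 2406 and 2548 in shZDHHC15 (log2 fold change 0.29, SE 0.0999, adjusted p = 0.0313 by edgeR). The adjusted p was 0.257 without shCON replicate 1, 0.131 without shZDHHC15 replicate 1 and 0.140 without shZDHHC15 replicate 2, and the call was also lost with upper-quartile scaling (0.0578), the DESeq2 Wald test (0.0621) and no filter (0.127). BAG2, an inhibitor of the ubiquitin ligase CHIP, fell from 664 and 555 to 333 and 425 counts (log2 fold change -0.81, SE 0.132, adjusted p = 2.04e-04). Its exons overlap RAB23 on the opposite strand, which had 510 and 532 counts in shCON and 552 and 551 in shZDHHC15. BAG1, BAG4, BAG5 and BAG6 had log2 fold changes between -0.27 and 0.16 and were not called.

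Of the 3 small heat shock protein genes that were tested, HSPB1 and HSPB8 fell. HSPB1, which encodes the abundant HSP27, had 23431 and 25870 counts in shCON and 20841 and 21965 in shZDHHC15, and its level per length went from 863 to 685 CPM per kilobase. The log2 fold change was -0.33 (SE 0.0949, adjusted p = 0.0112 by edgeR). Without shCON replicate 2 the adjusted p was 0.0795, and without shZDHHC15 replicate 1 it was 0.0652. HSPB8, the autophagy partner of BAG3, fell from 176 and 168 to 61 and 75 counts, from 9.81 ± 0.216 to 3.55 ± 0.385 CPM (SD, n = 2). Its log2 fold change was -1.46 (SE 0.200, adjusted p = 4.26e-05), and the call held without any one sample. The estimates of BAG3 and HSPB8, whose products act as a pair, thus did not share a direction. The rise of BAG3 was small, at 0.16 to 0.38 when each sample was left out in turn, and 5 of 8 alternatives kept its call. HSPB11, a component of intraflagellar transport despite its name, was not called (log2 fold change -0.14). The other 5 HSPB genes were at or near 0.

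Both cytosolic HSP90 genes were highly expressed and neither was called. The constitutive HSP90AB1 had 53403 and 50231 counts in shCON and 62719 and 66379 in shZDHHC15, a log2 fold change of 0.19 (SE 0.0818, adjusted p = 0.0723 by edgeR). Its groups did not overlap, and it was called with library size only (adjusted p = 0.00678). The inducible HSP90AA1 had 38954 and 31512 counts in shCON and 35754 and 37165 in shZDHHC15, with overlapping groups and a log2 fold change of -0.07 (SE 0.0894, adjusted p = 0.561). Of their summed level per length HSP90AB1 took 70.7% and 73.7% in shCON and 75.5% and 75.9% in shZDHHC15. Both genes have a near-identical pseudogene (HSP90AA2P and HSP90AB3P).

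The CCT complex is built of rings of 8 different subunits present in equal number, of which TCP1 lies outside the symbols used here. Of the 8 CCT genes tested, 2 fell, CCT7 and CCT4. CCT7 had 11799 and 11915 counts in shCON and 9403 and 10147 in shZDHHC15 (log2 fold change -0.41, SE 0.0874, adjusted p = 0.00181 by edgeR). CCT4 had 5490 and 5259 counts in shCON and 4775 and 5146 in shZDHHC15 (log2 fold change -0.24, SE 0.0872, adjusted p = 0.0374). CCT7 kept its call without any one sample. CCT4 did not: the adjusted p was 0.0677 without shCON replicate 2, 0.243 without shZDHHC15 replicate 1 and 0.154 without shZDHHC15 replicate 2, and it was 0.120 with library size only. Exons of CCT4 also overlap COMMD1 on the opposite strand, which went from 192 and 214 to 130 and 134 counts. CCT2, CCT5 and CCT8 had log2 fold changes of -0.19, -0.14 and -0.17, and CCT3 and CCT6A of 0.04 and 0.09, all not called. TCP1, from a list of other chaperone genes, had -0.19 (adjusted p = 0.0917).

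Per length, CCT3 was the most abundant subunit in both groups (211 ± 8.497 in shCON and 216 ± 2.63 CPM per kilobase in shZDHHC15, SD, n = 2). CCT7 followed in shCON at 188 ± 11.7, close to CCT8 at 176 ± 7.90, whereas in shZDHHC15 CCT7 stood at 142 ± 2.35, under CCT8 at 156 ± 3.77. CCT4, CCT6A and CCT5 lay between 87.8 and 108 in shCON and between 79.5 and 97.7 in shZDHHC15. TCP1 (74.1 and 65.0) and CCT2 (47.2 and 41.3) were the least abundant of the 8 ring subunits. CCT6B, a testis-enriched copy, was at 0.169 and 0.212, on 9 to 19 counts per sample. Differences in length between isoforms enter these levels, since 1 length was given per gene.

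**Figure D3:**
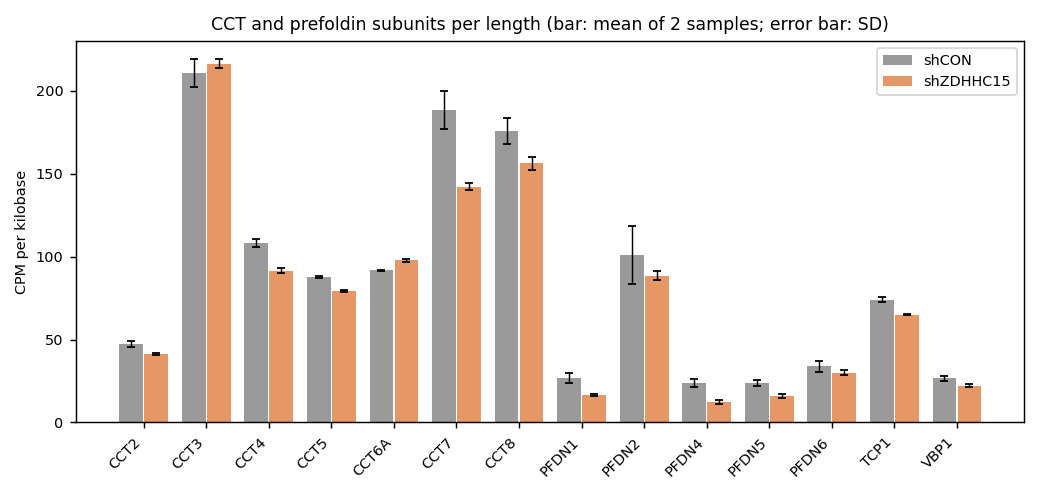
Bars give the mean level per length (y axis, CPM per kilobase) of CCT subunits, TCP1 and prefoldin subunits in 2 shCON (grey) and 2 shZDHHC15 (orange) samples, and error bars give the SD. CCT7 goes from 188 to 142, CCT3 stays near 211 to 216, and the means of all 6 prefoldin subunits are lower in shZDHHC15, where PFDN1, PFDN4 and PFDN5 were called.

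HSPD1 and HSPE1 encode the mitochondrial chaperonin HSP60 and its lid HSP10, and they are transcribed in opposite directions with annotated exons that overlap. HSPD1 had 11799 and 10348 counts in shCON and 11984 and 12871 in shZDHHC15, a log2 fold change of 0.04 (SE 0.0850, adjusted p = 0.715 by edgeR). HSPE1 had 1067 and 1125 counts in shCON and 1000 and 967 in shZDHHC15, a log2 fold change of -0.28 (SE 0.110) that lay close to the threshold without passing it (adjusted p = 0.0514). HSPE1 was called with DESeq2 size factors (0.0452) and upper-quartile factors (0.0324).

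HSF1, the main activator of the heat shock genes, was itself lower. It had 4460 and 4677 counts in shCON and 3516 and 3654 in shZDHHC15, and its level went from 261 ± 23.1 to 187 ± 1.896 CPM (SD, n = 2). The log2 fold change was -0.48 (SE 0.0941, adjusted p = 9.44e-04 by edgeR), and the call held without any one sample. Its exons overlap DGAT1 on the opposite strand, which also had fewer counts in shZDHHC15 (1290 and 1351 against 916 and 1118). RNA levels of HSF1 do not measure its activity, which is known to be set mainly at the protein level.

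The HSF1 motif was then counted over all promoters. In RefSeq windows of 300 bases, GAANNTTC or TTCNNGAA on either strand was found in 16.2% of 27305 genes and in 26 of the 73 chaperone symbols that had a window (35.6%). The form with 3 units, which contains a form with 2 units, was found in 0.608% of all genes and in 7 chaperone genes (9.59%), namely DNAJA1, DNAJB6, HSP90AA1, HSP90AB1, HSPA6, HSPA8 and HSPD1. Of these 7, DNAJA1 rose, HSPA6 fell and the other 5 were not called. The form with 2 units was held by 4 of 13 genes that were higher, 7 of 10 that were lower and had a window, and 12 of 40 that were not called. Among the higher genes, HSPA1A and HSPA1L were counted through the same site, and the window of HSPA1B is a close copy of that of HSPA1A. Among the lower genes, the only match of CCT4 and of DNAJC6 lay after the start, at bases 39 and 43. A difference between these groups was not tested. No match says only that these letters are not in this window.

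Genes that work with these chaperones but fall outside the symbols were read from a list of 42, of which 41 were tested. Of these, 7 were higher (17.1%, beside 21.7% of all tested genes) and 14 were lower (34.1%, beside 20.3%). The median log2 fold change of the tested genes of this list was -0.18. The list was chosen by hand with earlier results of these data known, so its shares cannot test an excess over all genes. Of the 7 higher genes 6 encode proteins of the endoplasmic reticulum. Not all genes of this compartment on the list were higher: SIL1 (0.26) and SDF2L1 (0.09) were not called, and SERPINH1 was lower (-0.51). The 3 largest rises were those of DNAJC3, an inhibitor of the kinase PERK and co-chaperone of BiP (775 and 586 against 1530 and 1525 counts; log2 fold change 1.05, SE 0.116, adjusted p = 5.84e-06 by edgeR), HSP90B1, the HSP90 of this compartment (0.71), and HSPA5, its HSP70 known as BiP (0.71). HSPA5 went from 11495 and 11005 to 20571 and 19421 counts. DNAJB9, HYOU1 and DNAJB11 rose by 0.70, 0.66 and 0.43. FKBP5, a cochaperone of HSP90 in steroid receptor complexes, rose by 0.65 and was the only one of the 7 from the cytosol.

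Of the 14 lower genes of this list, SERPINH1 encodes a collagen chaperone of the endoplasmic reticulum, GRPEL1 and CLPB encode mitochondrial proteins, and the others encode mainly cytosolic ones. Prefoldin hands unfolded actin and tubulin to CCT, and 3 of its 6 subunits fell. PFDN4 fell from 786 and 840 to 426 and 512 counts (log2 fold change -0.92, SE 0.124, adjusted p = 3.72e-05 by edgeR), and PFDN1 and PFDN5 had log2 fold changes of -0.68 and -0.59. PFDN2, PFDN6 and VBP1 were not called (-0.19, -0.17 and -0.26). HSPBP1, a nucleotide exchange factor of HSP70, fell from 2365 and 2374 to 1290 and 1509 counts (log2 fold change -0.89, SE 0.101, adjusted p = 7.44e-06), and PDRG1, a prefoldin-related gene, fell from 1773 and 1885 to 1119 and 1368 (-0.69). Among the HSP90 cochaperones, FKBP4 (-0.45), STIP1 (-0.36), PTGES3 (-0.36), NUDC (-0.37) and CDC37 (-0.27) fell, while AHSA1, PPID and CHORDC1 were not called. STUB1, which encodes the ubiquitin ligase CHIP that BAG2 inhibits, had a log2 fold change of -0.50. The number of lower genes in this list ranged from 9 without shZDHHC15 replicate 1 to 21 without shCON replicate 1.

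The 12 chaperone genes that did not pass the filter had at most 11 counts in a sample. CCT8L2, DNAJC25-GNG10, DNAJC5B, DNAJC5G, HSPB2 and HSPB3 were at 0 in all 4 samples. DNAJB7, DNAJB8, DNAJB13, HSPB6, HSPB7 and HSPB9 had a few counts. A count of 0 allows up to 3 counts at this depth, which is between 0.153 and 0.178 CPM and covers counting error only. Reads on the other members could also be shared: exons of 34 of the 85 genes are overlapped by a gene on the opposite strand and those of 16 by a gene on the same strand, and 17 have a near-identical stretch elsewhere (at least 150 bases at 97% identity or more).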

How the data were processed

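RNA of HCC1954 cells was sequenced in 2 shCON and 2 shZDHHC15 samples, with NEBNext Ultra libraries made from total RNA. The authors deposited raw counts of reads per gene, without normalization, and 1 length per gene. The submitters' processing notes name HISAT2, StringTie, SAMtools and hg38; versions, the counting tool and the strand setting are not given in the sources used here. Identifiers matched GENCODE on GRCh38, and all per-sample columns were used (0 left out).

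Genes were filtered with filterByExpr (minimum count 10), which left 15817, and compared by the quasi-likelihood test of edgeR 4.0.16 under R 4.3.3 (TMM factors from 0.962 to 1.03), with Benjamini-Hochberg adjustment. The fit was also run on counts simulated from the means and spread of these data. That run lends no support to the calls. Standard errors came from the log2 fold change and the F statistic. CPM used TMM-scaled library sizes. Near-identical stretches were found with BLAST+ 2.17.0, and motifs as exact letters on both strands of RefSeq windows.

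The members and the list of other chaperone genes were chosen with earlier results of these data known. Genes given in full were ZDHHC15, a core of inducible and constitutive chaperones, all CCT genes, every gene called with a log2 fold change of 1 or more in size, the largest called rise and fall of each class, and the 3 largest rises and falls of the other chaperone genes. Further called genes and DNAJC12 were added after their values were seen. The value of 1 leukocyte marker is not reported here.

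As alternatives, counts were scaled by library size only, by upper quartiles or by the size factors of DESeq2 1.42.0, its Wald test was run, the filter was dropped or raised to 10 counts in all 4 samples, edgeR's legacy quasi-dispersion was used, the replicate number entered as a block, and each sample was left out in turn. Counting HSPA1A and HSPA1B as 1 gene was added after seeing the data.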

Additional observations from a re-analysis of the deposited data

How the results depend on the processing

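Of the 25 called chaperone genes, 17 kept their call under all 8 alternatives to the main analysis and 16 (8 higher and 8 lower) also without any one sample, where the lone sample of a group was assumed to vary like the other group. No called gene changed direction under the alternatives run. The calls numbered 11 higher and 16 lower with upper-quartile factors, beside 13 and 12. With library size only, the median log2 fold change of the chaperone genes was 0.12 (0.04 in the main analysis). Under that scaling 2 genes were called past a 2-fold rise, CCT and DNAJC each had 1 lower gene, and HSP90 had 1 higher gene. With DESeq2 size factors the mitochondrial chaperonin had 1 lower gene. With upper-quartile factors BAG had 0 higher and 2 lower genes, DNAJB 2 lower, HSP110 1 higher and the mitochondrial chaperonin 1 lower. With the DESeq2 Wald test 0 genes were called past a 2-fold rise, BAG had 0 higher genes, HSP110 1 higher and HSP70 1 lower. With no filter on low counts 2282 of all genes were higher (3427 in the main analysis). Among the chaperone genes 0 were then called past a 2-fold rise, and BAG and HSP110 had 0 higher genes. CCT, DNAJC and the small HSPs had 1 lower gene each. The fit and the adjustment both took in more genes in that setting. The cause of these moves was not tested.

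Samples with the same number did not deviate clearly together (correlation 0.0610, from 2 pairs), so the numbers do not establish a pairing. With the replicate number as a block, 15 chaperone genes were higher and 16 lower; BAG and DNAJB had 2 lower genes each, HSP90 1 higher gene (HSP90AB1) and the mitochondrial chaperonin 1 lower gene (HSPE1).

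When each sample was left out in turn, the numbers of higher and lower chaperone genes moved. HSPA1L kept a log2 fold change of 1.03 to 1.22 in these fits but lost its call. The lower counts ran from 1 to 2 for BAG, DNAJB, DNAJC and the small HSPs, from 1 to 3 for CCT, from 0 to 1 for the mitochondrial chaperonin and from 9 to 21 for the other chaperone genes. The higher counts ran from 0 to 1 for BAG and from 0 to 2 for HSP110. Depth limits the genes with few counts (HSPA1L, HSPA12B, DNAJC12), and 2 samples a group limit the small differences.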
